A study of Mus musculus with 7 samples.

Results

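Indirect pathway spiny projection neurons (iSPNs) were the 941 nuclei, of 4524 in all, that the deposited annotation places in its D2 class of medium spiny neurons. Spiny projection neurons (SPNs) are the GABAergic output neurons of the striatum. Those of the indirect pathway project to the external globus pallidus, carry the dopamine receptor Drd2 and the adenosine receptor Adora2a, which act in opposite directions on cyclic AMP, and make the opioid peptide precursor Penk; direct pathway neurons (dSPNs) carry Drd1 instead. In Huntington's disease the indirect pathway neurons are known to be affected early, and an expanded CAG repeat in huntingtin lowers many genes that define striatal projection neurons.

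The nuclei came from the striatum of 7 male C57BL6/J mice, 3 wild type (WT) and 4 heterozygous for HttQ175 (HttQ175/+), a knock-in of an expanded CAG repeat in the mouse Htt gene that is present in every cell of the animal. HttQ175/+ replicate 1 was 15 months of age and the other mice 14 months. A single droplet library was made from each animal, so the mouse is the replicate and the replicate numbers only name mice. The series asks what the mutation does to the identity of striatal cells.

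WT replicates 1, 2 and 3 gave 96, 78 and 159 iSPN nuclei, and HttQ175/+ replicates 1, 2, 3 and 4 gave 135, 264, 93 and 116. The unique molecular identifiers (UMIs) of the iSPN nuclei of a mouse summed to between 209301 and 433227. The median iSPN nucleus held 2398, 2660 and 2565 UMIs in the WT mice and 2153, 1547, 2391 and 1811 in HttQ175/+ mice, lower in every HttQ175/+ mouse than in every WT mouse (exact two-sided permutation p = 0.0571 on the difference of means, n = 3 and 4). No barcode was shared between iSPN nuclei of different libraries. Levels are given as CPM: UMIs of a gene were scaled to a fixed total in each nucleus and averaged over the nuclei of a mouse. This removes depth but not its effect on the precision of low genes. Genotype was tested with limma on log2 CPM with a pseudocount of 8.31 CPM, over 5894 genes, with Benjamini-Hochberg adjustment; a gene "fell" or "rose" at an adjusted p under 0.05, and log2 changes are HttQ175/+ over WT with their standard error.

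The proximal promoters of marker genes of the class are shown here because their levels are described below and because a cyclic AMP response element is the site at which cyclic AMP signalling reaches a promoter. The sequences are from RefSeq on GRCm38.p6, from 250 bases before to 50 after the gene start that RefSeq gives, and 3 of the 5 markers had an entry. For Upb1 that start lies inside the gene as GENCODE draws it, so its window is not at the outer end of the GENCODE gene. Capitals mark the cyclic AMP response element TGACGTCA and the GC box GGGCGG, on either strand.

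Gpr6, chr10:41072241-41072540, minus strand: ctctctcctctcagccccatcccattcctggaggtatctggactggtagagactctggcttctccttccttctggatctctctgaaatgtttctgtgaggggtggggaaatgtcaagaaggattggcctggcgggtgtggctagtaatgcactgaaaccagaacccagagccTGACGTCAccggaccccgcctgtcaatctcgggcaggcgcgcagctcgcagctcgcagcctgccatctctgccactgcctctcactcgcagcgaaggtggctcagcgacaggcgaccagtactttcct
Drd2, chr9:49340153-49340452, plus strand: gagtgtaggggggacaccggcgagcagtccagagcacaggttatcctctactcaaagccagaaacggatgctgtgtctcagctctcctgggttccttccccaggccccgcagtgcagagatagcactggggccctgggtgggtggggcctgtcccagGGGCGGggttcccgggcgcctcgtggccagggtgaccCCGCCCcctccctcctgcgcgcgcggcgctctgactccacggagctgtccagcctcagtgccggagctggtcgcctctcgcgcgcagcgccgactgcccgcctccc
Upb1, chr10:75406661-75406960, plus strand: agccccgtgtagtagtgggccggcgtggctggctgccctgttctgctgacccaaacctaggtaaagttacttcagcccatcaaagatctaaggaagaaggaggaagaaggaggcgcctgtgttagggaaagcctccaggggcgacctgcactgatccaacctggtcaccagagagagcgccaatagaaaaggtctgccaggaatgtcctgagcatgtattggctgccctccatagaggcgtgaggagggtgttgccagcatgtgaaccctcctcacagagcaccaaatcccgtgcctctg

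The full response element was present in the window of Gpr6 and not in those of Drd2 and Upb1, and Drd2 held 2 GC boxes. Of 27025 mouse promoters of this length 1.88% held the element, against 3.88% of the 4510 promoters of genes tested in iSPNs, 2 of 79 promoters of genes that fell and 1 of 21 of genes that rose. These matches describe letters and not binding sites.

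The annotation was checked against the markers. In WT mice 88.3% of iSPN nuclei held more UMIs of the 5 iSPN markers than of the dSPN markers and 3.30% held more of the dSPN markers. In HttQ175/+ mice the shares were 61.2% and 8.22%, and 171 of 608 nuclei held neither, against 26 of 333 in WT. These shares pool nuclei over mice and were not thinned, although HttQ175/+ nuclei were shallower. By mouse, more iSPN marker UMIs were held by 85.9% to 91.7% of iSPN nuclei in WT. In HttQ175/+ mice this was 54.5% to 67.2%, lowest in replicate 2, which had the shallowest nuclei. Drd1 was found in 2.55% ± 2.56 of WT iSPN nuclei and 2.64% ± 2.00 of HttQ175/+ iSPN nuclei thinned to 1100 UMIs (SD over mice), below the 7.99% and 8.79% in oligodendrocytes, which should lack it. The markers bear out the name in WT. A larger share of nuclei carried no marker UMI in HttQ175/+ mice, and the part of depth in this was not tested.

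The share of nuclei labelled iSPN was lower in HttQ175/+ mice. They made up 23.0%, 23.1% and 28.5% of all nuclei in WT and 16.4%, 21.3%, 20.8% and 16.5% in HttQ175/+ mice. The groups did not overlap: means were 24.8% ± 3.16 and 18.8% ± 2.64 (SD, exact two-sided permutation p = 0.0286, the smallest that 35 splits allow). Among dSPNs and iSPNs together, iSPNs were 37.1%, 39.6% and 40.8% in WT and 26.9%, 34.2%, 34.4% and 32.3% in HttQ175/+ mice (exact permutation p = 0.0286). A further 2 to 6 WT nuclei and 7 to 43 HttQ175/+ nuclei per mouse were labelled as SPNs of unknown subtype; with those counted as iSPNs the difference was -5.72 percentage points instead of -7.19 (exact permutation p = 0.0571). Since Penk, Adora2a, Gpr6 and Upb1, which help to separate the subtypes, fell with genotype, fewer nuclei and fewer recognised nuclei cannot be told apart.

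**Figure D1:**
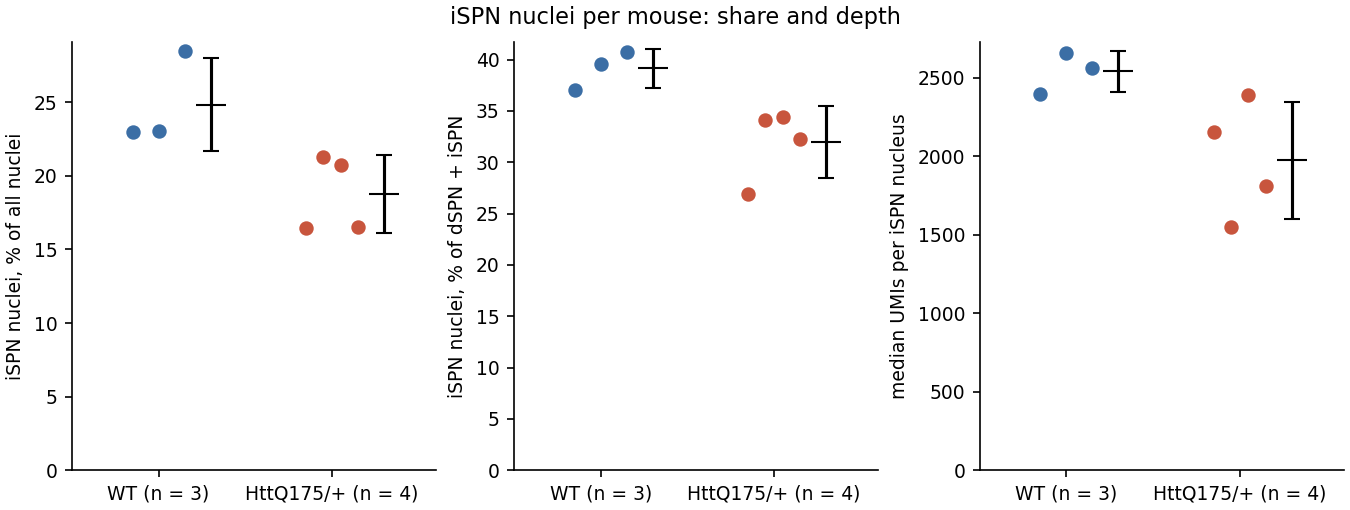
Share of iSPN nuclei among all nuclei (left, %), among dSPN and iSPN nuclei (middle, %) and median UMIs per iSPN nucleus (right), 1 point per mouse, with the mean and SD beside the points. All 4 HttQ175/+ mice lie below all 3 WT mice in each panel.

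Of the 5 markers of iSPNs 4 fell, and Drd2 could not be tested. Penk, the enkephalin precursor (chr4:4133531-4138819 on mm10, minus strand), was at 1561, 1132 and 1800 CPM in the WT mice, against 423.7, 371.3, 330.8 and 399.3 CPM in the HttQ175/+ mice. The highest HttQ175/+ mouse was well under the lowest WT mouse, and the change was -2.04 ± 0.19 (adjusted p = 2.21e-05). Adora2a, an adenosine receptor that raises cyclic AMP (chr10:75316877-75334784), was at 523.3, 470.2 and 514.5 CPM in WT against 280.0, 248.4, 256.4 and 278.1 CPM, again without overlap, a change of -1.01 ± 0.17 (adjusted p = 0.00384). Gpr6, a constitutively active receptor that also raises cyclic AMP (chr10:41069977-41072285), was at 212.6, 269.7 and 236.0 CPM against 134.4, 110.1, 68.1 and 114.4 CPM, a change of -1.24 ± 0.23 (adjusted p = 0.00882).

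Upb1, which encodes an enzyme of pyrimidine breakdown (chr10:75401115-75441679), was at 116.8, 60.9 and 46.1 CPM in the WT mice, against 18.5, 18.3, 20.01 and 15.3 CPM in the HttQ175/+ mice. It rested on 62 and 22 UMIs and fell by 1.65 on the log2 scale (adjusted p = 0.0172). It passed the filter on low values through the WT mice alone, so a difference was needed for it to be tested. Drd2, the defining receptor, rested on 39 WT and 29 HttQ175/+ UMIs and did not pass the filter on low values, so it was not tested. Its level was 32.0, 39.1 and 52.1 CPM in the WT mice and 12.7, 26.7, 33.6 and 27.8 CPM in the HttQ175/+ mice, where replicate 3 lay above the lowest WT mouse.

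Of 12 genes listed for iSPN identity, 10 were in the files and 9 were tested: 4 fell, against 1.7% of all 5894 genes tested, and none rose; Upb1, 1 of the 4, was tested only because it was high in WT. The median change of the 9 was -0.62, and that of all tested genes was 0.00. Grik3, a kainate receptor subunit, had a change of -0.62 ± 0.21 (adjusted p = 0.163) and Plxdc1 of -0.56 (adjusted p = 0.302). The cyclase subunit Gucy1a3, the phosphatase Ptprm and the transcription factor Sp9 had changes of -0.19, 0.08 and 0.29, with overlapping groups.

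UMIs of these genes were also found in cells that should not make them, as free RNA in a droplet can give. In oligodendrocytes, which should not make Penk, it was at 258.3 ± 54.2 CPM in the WT mice and 102.0 ± 38.5 CPM in the HttQ175/+ mice. After thinning to 1100 UMIs, the share of iSPN nuclei with a Penk UMI was 65.5% ± 10.2 in WT and 25.2% ± 2.38 in HttQ175/+ mice (71.8% and 29.6% unthinned), against 11.1% and 7.05% in thinned oligodendrocytes. Adora2a was found in 35.4% and 24.8% of iSPN nuclei against 5.50% and 5.74% of oligodendrocytes. Both genes thus stayed above the oligodendrocyte share in both genotypes, and the part of free RNA in the falls was not tested.

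**Figure D2:**
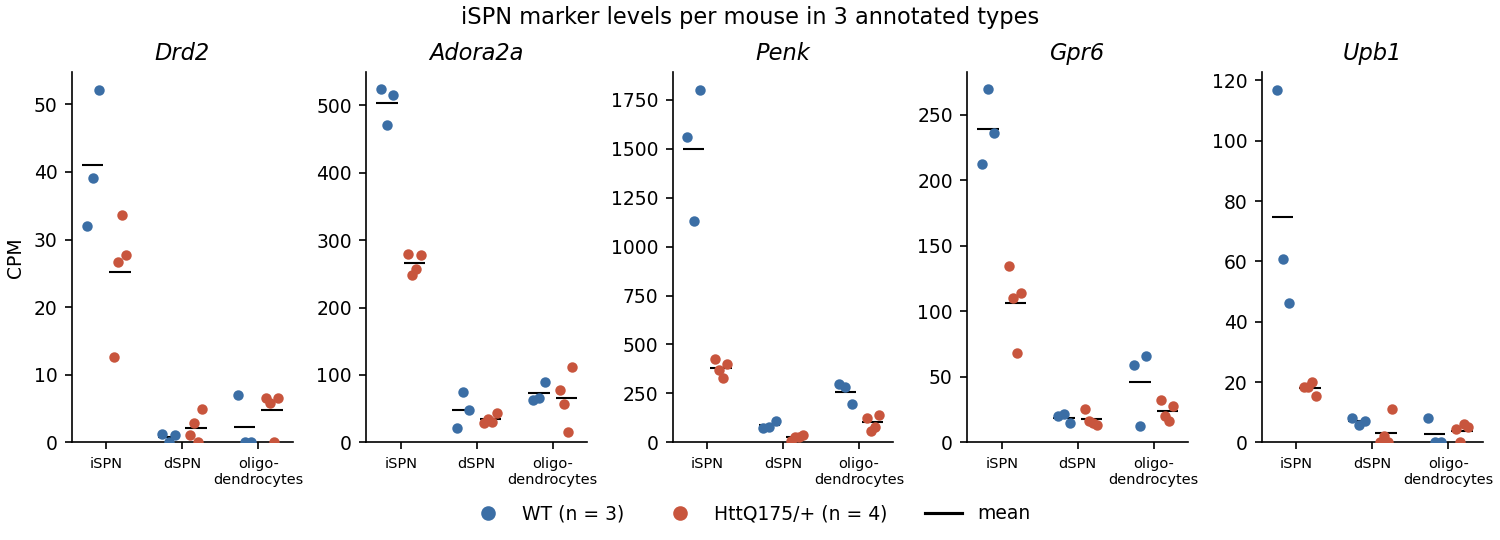
CPM of 5 iSPN markers in iSPNs, dSPNs and oligodendrocytes, 1 point per mouse and a line at the mean, with WT in blue and HttQ175/+ in red; each panel has its own axis from 0. Penk, Adora2a, Gpr6 and Upb1 are lower in every HttQ175/+ mouse than in every WT mouse in iSPNs, and the Drd2 groups overlap.

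Across the transcriptome 130 of 5894 genes changed (2.21%), 100 down and 30 up (1.7% and 0.509%). Without scaling between mice the split was 74 down and 43 up, and the median change of all genes was 0.10 instead of 0.00. At an unadjusted p under 0.05 there were 890 genes. The levels of the 2 genotypes did not overlap for 13.7% of tested genes, and for all 130 that changed. The change was at least 1 on the log2 scale for 61 of the falls and 19 of the rises. A gene that is high in only 1 genotype can pass the filter through that genotype alone. This held for 5 of the 100 falls (Abi3bp, Tbc1d4, Ptma, Upb1 and Cdh13) and 10 of the 30 rises. Among those rises were Sfmbt2, Vwa5b2, Shank1, Fez1, Edil3, Hspa12a, Pcdhb17 and Pcdhb19. Counts of changed genes therefore describe the genes that passed. The count was 53 without WT replicate 1, 71 without WT replicate 3, 76 without HttQ175/+ replicate 1 and 81 with nuclei thinned to 1500 UMIs.

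**Figure D3:**
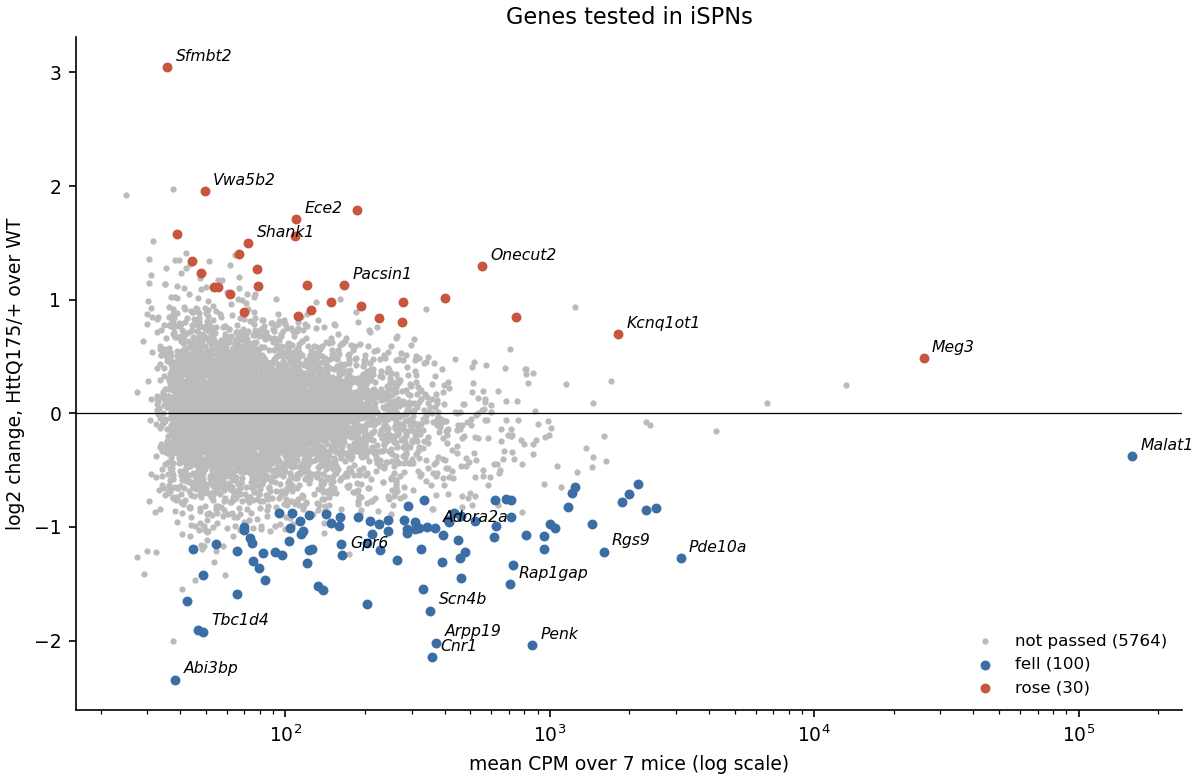
Log2 change of each of the 5894 tested genes against its mean CPM over 7 mice (log axis), with the 100 genes that fell in blue and the 30 that rose in red. Penk, Cnr1 and Arpp19 stand out among the falls and Sfmbt2 among the rises.

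Many genes listed for SPNs as a whole fell. Of 38 tested genes of a list for SPN identity 21 fell (55.3%, against 1.7% of all tested genes) and none rose. The median change was -0.89, and the count of falls ran from 15 to 24 over all settings. The list also holds Penk, an iSPN marker, so its fall is counted both here and for iSPN identity. Pde10a, the cyclic nucleotide phosphodiesterase most typical of the striatum, was at 4566, 4754 and 4406 CPM in the WT mice, against 2106, 1927, 2169 and 1963 CPM in the HttQ175/+ mice. The groups were far apart relative to their spread, and the change was -1.27 ± 0.11 (adjusted p = 1.79e-05). Scn4b, a sodium channel beta subunit, was at 607.6, 514.7 and 620.2 CPM against 153.7, 194.5, 193.9 and 187.9 CPM, a change of -1.74 ± 0.18 (adjusted p = 9.85e-05). Ppp1r1b (DARPP-32), the dopamine-regulated phosphatase inhibitor, was at 607.6, 492.6 and 625.7 CPM against 341.7, 220.3, 235.6 and 203.5 CPM and fell by 1.30 on the log2 scale.

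The fall was then examined per nucleus. Summed over the 38 genes in nuclei thinned to 1100 UMIs, the median nucleus held 32, 32 and 33 UMIs in WT and 17, 15.5, 19 and 17 UMIs in HttQ175/+ mice. The 95th percentile in HttQ175/+ mice, 26.0 to 29.0 UMIs, lay below the WT medians, and the 5th percentile was 6.15 to 11 UMIs against 16.9 to 20 UMIs. Quartiles, medians and both tails were lower in every HttQ175/+ mouse than in every WT mouse.

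**Figure D4:**
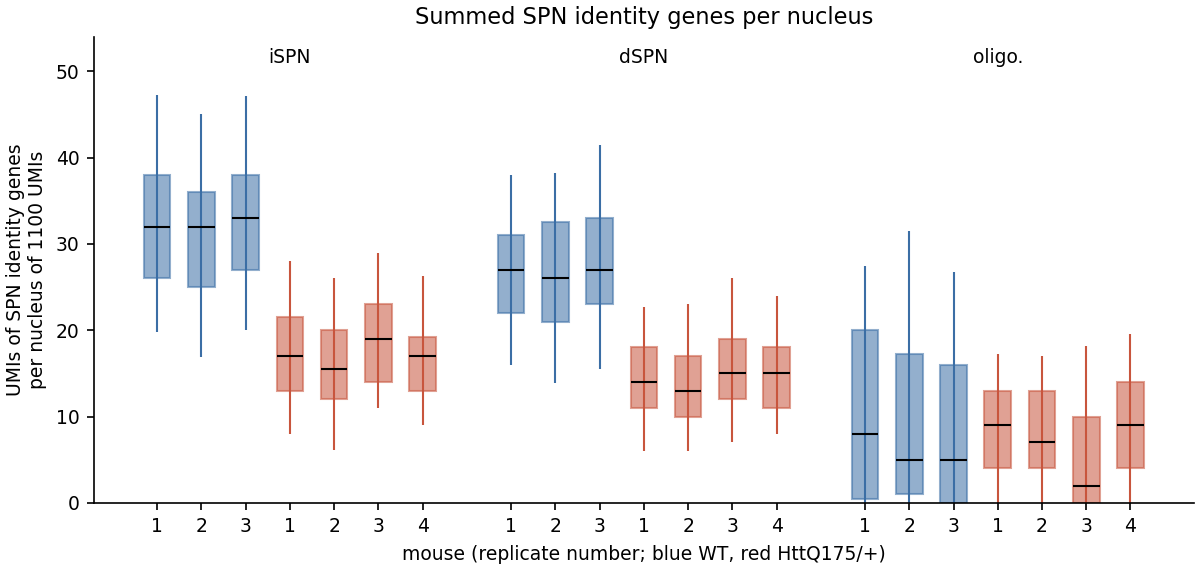
UMIs of 38 SPN identity genes per nucleus thinned to 1100 UMIs, for each mouse and 3 annotated types; boxes span the quartiles, lines the 5th to 95th percentile and black bars the median. In iSPNs the WT medians are 32 to 33 and the HttQ175/+ medians 15.5 to 19.

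Receptors and the proteins that pass on their signal were described next. The gene lists share members, so falls in different lists are in part the same genes and not separate results. Among the SPN identity falls above were also Cnr1, Arpp19, Rgs9, Ptpn5, Adcy5, Pde10a and Pde1b of the lists below. The same held for Ryr1, Itpr1, Hpca, Kcnh4, Kcnip2, Scn4b and Foxp1. Of 19 tested receptors coupled to G proteins 7 fell, 36.8% against 1.7% of all tested genes (median -0.69, 4 to 9 over settings). The cannabinoid receptor Cnr1 was at 450.5, 895.7 and 575.3 CPM in the WT mice, against 172.4, 161.4, 87.5 and 172.1 CPM in the HttQ175/+ mice, a change of -2.15 ± 0.26 (adjusted p = 0.00036). Its groups were apart although WT replicate 2 was high. The orphan receptor Gpr83, the histamine receptor Hrh3 and the GABA-B subunit Gabbr1 fell, with changes of -1.19, -1.20 and -1.05. Among phosphatase regulators and regulators of G protein signalling 8 of 24 fell (33.3%, median -0.69, 5 to 9 over settings). Arpp19, a phosphatase inhibitor regulated by cyclic AMP, was at 674.4, 614.9 and 645.8 CPM against 178.7, 153.9, 201.5 and 135.4 CPM (-2.02 ± 0.19, adjusted p = 2.21e-05). Rgs9, which speeds the shutting off of G proteins, changed by -1.22 and the tyrosine phosphatase Ptpn5 by -1.01.

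For cyclic nucleotide signalling 4 of 27 genes fell (4 to 6 over settings), 14.8% against 1.7% of all tested genes, with a median of only -0.14. These were the adenylyl cyclase Adcy5, at 1160, 988.4 and 1087 CPM in the WT mice and 411.3, 490.4, 533.2 and 403.1 CPM in the HttQ175/+ mice (-1.33 ± 0.16, adjusted p = 0.00036), Pde10a, Pde1b (-1.27) and the anchoring protein Akap9 (-1.08). Calcium release and buffering had 6 falls among 24 genes (median -0.55), among them the release channels Ryr1 (-1.47) and Itpr1 (-0.90), the calcium sensor Hpca (-1.54) and the calmodulin binders Pcp4 (-1.45) and Nrgn (-1.11). Of 36 tested genes in a list of kinases and related proteins of synaptic plasticity 6 fell (16.7%, 3 to 6 over settings). Among them were Dclk1 (-1.08), Camkv (-0.97), Prkcb (-0.95) and Camk2b (-0.91), while the median of the list was -0.03. Among ion channels, 2 of 31 potassium channel genes fell (6.45%), Kcnh4 and Kcnip2, and 3 of 28 sodium and calcium channel genes (10.7%), Scn4b, Cacnb2 and Cacna1e, against 1.7% of all tested genes. Over settings these counts ran from 0 to 4 and from 1 to 4.

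Other falls were in single genes. Abi3bp, an extracellular matrix protein, went from 79.0, 81.5 and 68.2 CPM to 15.4, 2.44, 10.9 and 11.2 CPM, a change of -2.34 ± 0.40 (adjusted p = 0.00443) on 63 and 9 UMIs. Like Tbc1d4, Ptma and Cdh13 below, Abi3bp passed the filter through WT mice alone. Rap1gap, which switches off the small GTPase Rap, went from 1098 ± 192 to 412.2 ± 57.1 CPM (adjusted p = 0.00029). Ntrk2, the receptor for BDNF, changed by -1.52, Tbc1d4 by -1.92 and Car11 by -1.68. Ptma changed by -1.91, but it has processed copies in the genome, and how shared reads were counted is not stated. In synaptic adhesion 4 of 58 genes fell, 6.90% against 1.7% of all tested genes. These were the cadherins Cdh11 (-1.36) and Cdh13 (-1.19), Cntn5 (-0.82) and Cadm2 (-0.76). Over settings the count ran from 0 to 4, and Cdh13 passed in 6 of 16 settings and Cadm2 in 9 of 19. In splicing and RNA binding 3 of 41 fell (7.32%), Rbm25 (-0.95), Rbfox1 (-0.95) and Celf2 (-0.62), and over settings 0 to 3. The chaperone Hsp90b1 fell (-1.13) and Hspa12a rose (1.05), 6.67% of 30 tested against 2.21% of all tested genes. Hspa12a passed the filter through HttQ175/+ mice alone. It passed the test in 9 of 17 settings and failed with 6 of the 7 mice left out in turn. Of 27 transcription factors of SPN identity Foxp1 fell (-0.65, adjusted p = 0.0396), a share of 3.70% against 1.7% of all tested genes. Foxp1 passed in 10 of 19 settings and failed with 6 of the 7 mice left out in turn, and the median of the list was 0.06.

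The rises were fewer and at lower levels. Sfmbt2, a Polycomb group protein, had no UMI in any WT mouse and 74 in HttQ175/+ mice, at 66.0, 56.2, 59.2 and 68.6 CPM. Taking 3 UMIs summed over the WT mice as the floor, the level in HttQ175/+ mice was at least 17.8-fold higher (adjusted p = 0.00161 by limma). Vwa5b2 stood at 10.7, 20.2 and 7.87 CPM in the WT mice, against 74.5, 98.2, 60.7 and 74.8 CPM in the HttQ175/+ mice (1.95 ± 0.32, adjusted p = 0.00315). Sfmbt2 and Vwa5b2 passed the filter on low values through HttQ175/+ mice alone, so a difference was needed for them to be tested.

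Onecut2, a developmental homeodomain factor, stood at 271.8, 366.8 and 214.3 CPM in the WT mice, against 794.4, 861.4, 731.3 and 632.8 CPM in the HttQ175/+ mice (1.30 ± 0.19, adjusted p = 0.00157). Of 42 listed developmental transcription factors 3 were tested, so the list is not described by a count. Ece2, a peptidase, rose by 1.71, the endocytic adaptor Pacsin1 by 1.13, the secreted protein Edil3 by 1.23 and the glycosyltransferase Mgat4c by 1.27. Edil3 passed the filter through HttQ175/+ mice alone. Its call was kept in 9 of 17 settings and lost with each mouse left out in turn. The postsynaptic scaffold Shank1 was at 33.2, 24.8 and 29.8 CPM against 111.2, 91.8, 106.9 and 109.8 CPM (adjusted p = 0.00163). Shank1 also passed the filter through HttQ175/+ mice alone. Of 7 tested clustered protocadherins Pcdhb19 and Pcdhb17 rose by 1.58 and 1.34, on 13 and 17 WT UMIs; members of this family are similar in sequence, so reads may be shared between them. Of the 7, 4 passed the filter through HttQ175/+ mice alone. Pcdhb17 passed in 7 of 17 settings and in none with a mouse left out, and Pcdhb19 passed in 8 of 16. Among 8 tested long noncoding RNAs 3 rose (1 to 4 over settings), against 0.509% of all tested genes. Meg3 rose from 20096 ± 2031 to 30293 ± 1476 CPM (0.48 ± 0.07), Kcnq1ot1 by 0.70 and Miat by 1.13. Malat1 fell by 0.38. Miat passed in 12 of 19 settings and failed with 5 of the 7 mice left out in turn. Kcnq1ot1 passed in 17 of 19. Meg3 and Malat1 each passed in 18 of 19 and failed with no filter. Kcnq1ot1 lies antisense to Kcnq1, and whether counting used strand is not stated, so reads of the pair cannot be told apart.

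Several genes that rose were also found in oligodendrocytes of HttQ175/+ mice. After thinning to 1100 UMIs, HttQ175/+ iSPN nuclei with a UMI made up 7.90% for Vwa5b2, 16.3% for Ece2, 10.2% for Shank1, 6.32% for Sfmbt2 and 49.1% for Onecut2. The unthinned iSPN shares were 13.2%, 25.5%, 20.3%, 12.1% and 61.9%. The thinned shares in HttQ175/+ oligodendrocytes were 6.39%, 12.1%, 8.48%, 2.60% and 28.5%. In WT oligodendrocytes they were 0%, 2.28%, 5.42%, 0% and 17.9%, each lower on average than in HttQ175/+ oligodendrocytes. For Vwa5b2, Ece2 and Shank1 the HttQ175/+ oligodendrocyte shares lie close to the iSPN share. Whether any of these rises, those of Sfmbt2 and Onecut2 included, is in iSPNs or in free RNA of the sample was not tested. Some genes that fell came down to shares near those of oligodendrocytes. Thinned HttQ175/+ iSPN nuclei held a UMI of Cnr1 in 12.6%, Arpp19 in 10.8% and Ntrk2 in 6.40%, against 9.99%, 9.79% and 7.18% of oligodendrocytes. Their remaining level in iSPNs is not resolved. The oligodendrocyte class was itself mixed. Quartiles of its summed SPN identity UMIs were 0.5 and 20 in WT replicate 1 and 4 and 13 in HttQ175/+ replicate 1. The dSPN medians of those mice were 27 and 14. Oligodendrocyte shares are thus not a uniform level of free RNA, and the source of these UMIs was not tested.

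**Figure D5:**
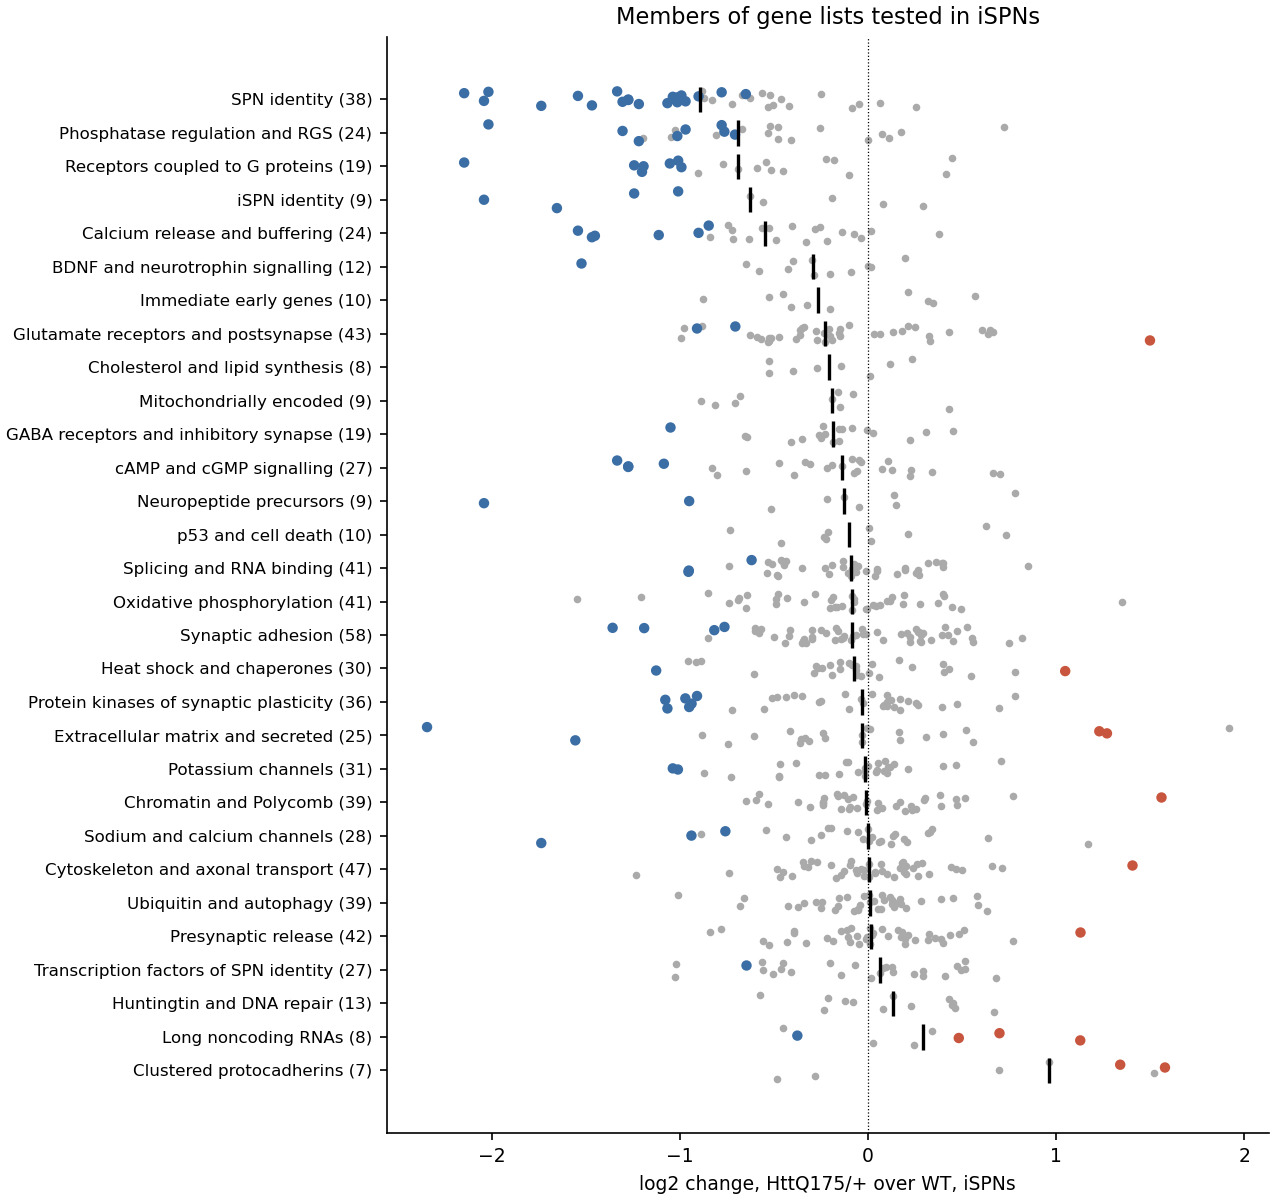
Log2 change in iSPNs of the tested members of each gene list with 5 or more tested members (number in brackets), 1 point per gene, blue where it fell, red where it rose and grey where it did not pass; black bars are medians. A gene can stand in more than 1 list. The median of SPN identity is -0.89. Of the 7 clustered protocadherins 4 were tested only because they were high in HttQ175/+ mice.

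No member passed the test among 39 genes of ubiquitin and autophagy, 41 of oxidative phosphorylation, 9 mitochondrially encoded genes, 10 immediate early genes, 13 of huntingtin and DNA repair, 10 of p53 and cell death and 8 of cholesterol synthesis, with limma and medians between -0.26 and 0.14. As 2.21% of all tested genes passed, lists of this size would hold few calls at the overall share. Htt itself stood at 172.9, 152.7 and 195.9 CPM in the WT mice, against 149.6, 185.0, 152.8 and 202.1 CPM in the HttQ175/+ mice, with overlapping groups (-0.12 ± 0.21, adjusted p = 0.845). Total Htt does not separate the knock-in allele from the other and so does not check the genotype.

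Markers of other cells in iSPN nuclei were compared between genotypes. Summed oligodendrocyte markers ranged over 79.96 to 215.4 CPM in the WT mice, 32.4 to 227.0 CPM in the others, and astrocyte markers over 52.2 to 131.9 and 41.4 to 114.3 CPM. The groups overlapped for the sums of dSPN, interneuron, cortical, glial, vascular and ependymal markers, and Chat, Tbr1, C1ql1 and Tmem212 were at 0. Within these sums single markers went in both directions. In WT and HttQ175/+ mice the interneuron marker Elavl2 had 5 and 42 UMIs and the cortical marker Neurod2 1 and 31. Sst had 23 and 12, Npy 12 and 5 and Slc17a7 7 and 1. No interneuron or cortical marker passed the filter on low values, so none was tested. Summed markers of eccentric SPNs were higher in HttQ175/+ mice, at 40.3 ± 5.59 CPM in the WT mice and 91.5 ± 17.9 CPM, without overlap. Most of the difference between the sums was in Col11a1, which rested on 3 and 55 UMIs and averaged 3.98 ± 1.12 and 40.7 ± 9.39 CPM in the 2 genotypes; in dSPNs the averages were 8.08 and 55.1 CPM. Casz1 had 3 and 2 UMIs and Otof 9 and 14. The part of eccentric SPNs in the changes above was not tested. Without nuclei holding 2 or more glial or vascular marker UMIs 129 genes changed.

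The effect of genotype in iSPNs was then compared with that in dSPNs of the same mice, with the mouse as a block. Of 5887 genes tested for a difference 1 passed (0.017%), and 381 had an unadjusted p under 0.05. This was Onecut2, whose change was 1.30 in iSPNs and 0.49 in dSPNs, a difference of 0.81 ± 0.15 (adjusted p = 0.0292). In WT it was lower in iSPNs than in dSPNs, at 284.3 ± 77.0 against 492.3 ± 108 CPM, and in HttQ175/+ mice the levels were 755.0 ± 97.2 and 744.1 ± 71.0 CPM. The call was lost without WT replicate 1, WT replicate 3 or any of HttQ175/+ replicates 1, 2 and 3. Rpl37, which has many processed copies, did not pass (-2.07, adjusted p = 0.0755). For Penk, Adora2a and Gpr6 the fitted differences were -0.38, -0.64 and -1.10 (adjusted p = 0.88, 0.73 and 0.42), so a fall particular to iSPNs was not shown for them. For Pde10a the changes were -1.27 in iSPNs and -1.35 in dSPNs, with a difference of 0.08. In simulated data the fit recovered 38% of rises and 36.1% of falls of 1 log2 unit in this difference. At 2 units it recovered 100% and 84.4%, with 5 false calls, so smaller differences would often be missed. The simulation gave all genes the same spread between mice and drew iSPNs and dSPNs independently. Recovery in these mice may differ.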

How the data were processed

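Nuclear RNA was read from the 3' end in droplets, 1 library per mouse, from 3 WT and 4 HttQ175/+ mice. Per the submitters' processing notes, the tools were Cell Ranger 3.0.2 and Seurat and the genome was mm10. How nuclei were filtered, how types were called, whether doublets were removed and whether counting used strand are not stated there or in the labels; no doublet caller was run. The authors deposited, for each mouse, values on a natural log scale: the natural log of 1 plus UMIs per 10000 of the nucleus, for 27998 genes. The smallest step within a nucleus gave back whole UMIs, and 100% of 5824756 values above 0 were whole within 0.02. A table smoothed across nuclei was not used. Cell types and genotypes came from the authors' annotation, whose genotypes matched the labels for all 4524 nuclei.

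For each mouse the linear values of iSPN nuclei were averaged, brought to CPM and scaled with TMM factors. The log2 scale was taken after adding 8.31 CPM, the worth of 2 UMIs in the mouse of median depth, which understates changes of low genes. Printed CPM are unscaled. Genes needed 15 UMIs in all and 41.6 CPM in 3 mice. limma 3.58.1 in R 4.3.3 tested genotype with its trend option; the difference between iSPNs and dSPNs kept the mouse as a block. Shares were compared with exact permutation tests over all splits of the mice, computed in Python 3.11.15 with numpy 2.4.6. Standard deviations are over mice.

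Named genes were, among genes past the threshold with groups that did not overlap and 20 CPM or more on average, the 15 largest falls and rises, up to 5 passing members of each list, every iSPN identity gene, and the 5 smallest p of each direction for the difference, or the 3 smallest where none passed; not all are printed, and a few that meet the rule are withheld from the text. Provisionally named genes entered counts only. Htt, and the oligodendrocyte levels, were added. The nuclei, gene lists and tests were chosen with earlier results of these data known. Gene coordinates are from GENCODE vM21. The fit was checked on simulated data: of changes of 1 log2 unit it recovered 72% of rises and 58.3% of falls in iSPNs, and of 2 units 100% and 97%. Alternatives were other scalings, pseudocounts and filters, summed UMIs, thinned nuclei, array weights, each mouse left out, and nuclei left out by depth or markers.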

Additional observations from a re-analysis of the deposited data

Results flagged for a closer look

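In 80 groups of 4 HttQ175/+ mice, for the named genes and summary measures, 5 held a mouse whose gap to its nearest neighbour was large for the range of the group; chance gives about 1 in 20. Cnr1 was low in HttQ175/+ replicate 3 (87.5 CPM, the others 161.4 to 172.4 CPM), and Scn4b was low in replicate 1 (153.7 CPM, the others 187.9 to 194.5 CPM). Celf2 was high in replicate 3 (2166 CPM). Kcnq1ot1 was low in replicate 1 (1921 CPM) and Mgat4c in replicate 4 (73.3 CPM). Each of these mice stayed on its group's side of all WT mice. Replicate 1 was 15 months old, the others 14; the part of age was not tested.

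The genotype effect on Onecut2 differed between iSPNs and dSPNs by the test of the difference itself, by 0.81 on the log2 scale.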

How the results depend on the processing

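Of 70 named genes that passed the test in iSPNs, 30 passed in every setting in which they were tested and 35 with any single mouse left out; none changed sign. The count of 130 genes ran from 53 to 139 with 1 mouse left out, with the lowest counts without WT replicate 1 (53), WT replicate 3 (71) and HttQ175/+ replicate 1 (76), and was 81 with nuclei thinned to 1500 UMIs, where fewer genes were tested (3387). Falls made up 76.9% of calls, and 63.2% without scaling. For the difference between iSPNs and dSPNs the count of 1 ran from 0 to 3 with 1 mouse left out; it was 2 with a pseudocount worth 5 UMIs and 0 with no filter, and the cause was not tested. The iSPN share of all nuclei differed by -7.03 to -4.26 percentage points with 1 mouse left out (exact permutation p 0.0667 to 0.133) and the share of dSPNs plus iSPNs by -8.23 to -5.51 (p 0.0667 to 0.133), sizes at which 6 mice cannot reach 0.05; with SPNs of unknown subtype counted as iSPNs, an alternative chosen after seeing the data like the 3 that leave out nuclei by depth or markers, it was -5.72 (exact permutation p = 0.0571). No paired analysis was possible because replicate numbers follow accession order and the labels link no WT mouse to an HttQ175/+ mouse. HttQ175/+ replicate 2 had the shallowest nuclei, and without it 94 genes changed. Low genes such as Drd2, at 68 UMIs in all iSPN nuclei, are limited by depth.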

Other observations

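Genes that fell were at higher levels and longer than tested genes as a whole, as a description of these libraries. Their median level was 288.3 CPM and their median gene length 63.9 kb, against 76.8 CPM and 33.2 kb for all tested genes, and 110.6 CPM and 49.8 kb for genes that rose. Level and length differed together, and neither was tested against the other. Promoters of genes that rose held a median of 13 CpG, against 21 for genes that fell and 23 for tested genes.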
